A study of Mus musculus with 24 samples.

Results

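The drug-metabolising cytochromes P450 of families 1 to 3 were examined in liver RNA of 24 mice, taken as every protein-coding gene whose symbol is Cyp1, Cyp2 or Cyp3 followed by a subfamily letter and a number and whose mean level over all libraries was at least 0.5 CPM (counts scaled to a common library size of 1e+06). Of 53677 gene identifiers in the count matrix, 58 carried such a symbol and 42 reached the level, which makes 42 members. The members nearest above the threshold were Cyp2d11 at 0.640 CPM and Cyp2s1 at 0.654 CPM, and the genes nearest below it were Cyp2j8 at 0.301 CPM and Cyp3a57 at 0.241 CPM. Each library came from 1 mouse of an inbred strain, 129S1/SvImJ or C57BL/6J, kept on a high-fat diet or on chow. The groups held 6 high-fat 129S1/SvImJ livers, 5 chow 129S1/SvImJ livers, 7 high-fat C57BL/6J livers and 6 chow C57BL/6J livers. The labels name no other allele or agent for any group and give neither age nor sex, nor what the diets contained or how long they were fed.

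Cytochromes P450 of these families are haem proteins of the endoplasmic reticulum of hepatocytes that oxidise drugs, environmental chemicals, steroids, fatty acids and bile acids with electrons from the reductase Por. Much of their transcription is set by ligand-activated receptors: AHR for family 1, the constitutive androstane receptor CAR (Nr1i3) for the Cyp2b and several Cyp2c genes, and the pregnane X receptor PXR (Nr1i2) for Cyp3a. In mouse liver many of the members lie in clusters of recent duplicates, differ between the sexes, and are produced around the central vein rather than the portal tract, with Cyp2f2 as a periportal exception.

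Total counts ran from 6707013 to 13124881 per library, and the 42 members together took 1.41% to 2.40% of a library's counts. Hepatocyte markers were abundant in every library, with a summed level of 82344 to 104168 CPM in high-fat 129S1/SvImJ livers, 97292 to 114568 CPM in chow 129S1/SvImJ livers, 79814 to 98620.2 CPM in high-fat C57BL/6J livers and 109625 to 117764 CPM in chow C57BL/6J livers. The Y-linked gene Ddx3y was read at 96.2 to 143 CPM in every library and the female-specific Xist at no more than 0.788 CPM. Of the 42 members 40 had enough counts to be tested, all but Cyp2b9 and Cyp2d11. A member is said to be called, to rise or to fall when its adjusted p in edgeR's quasi-likelihood test, corrected over 14533 genes, was under 0.05. Fold changes are log2 ratios, high-fat diet over chow or 129S1/SvImJ over C57BL/6J, with their standard error. In whole liver, fewer cells of a type and less RNA per cell cannot be told apart.

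By level per kilobase of transcript, Cyp2e1, which oxidises ethanol, acetone and acetaminophen, stood first among the members. Its level was 5306 CPM per kb in high-fat 129S1/SvImJ livers, 4466 in chow 129S1/SvImJ livers, 3316 in high-fat C57BL/6J livers and 3342 in chow C57BL/6J livers. Over all libraries Cyp2e1 averaged 4059 CPM per kb, and next in this order came Cyp2c29 at 734, Cyp2d9 at 724, Cyp2f2 at 627 and Cyp3a11 at 619 CPM per kb. The order of these 4 was not the same in every group: Cyp3a11 came before the other 3 in high-fat C57BL/6J livers, at 974 CPM per kb, and last of the 4 in chow 129S1/SvImJ livers, at 226. At the low end stood Cyp1a1 at 0.297, Cyp1b1 at 0.259 and Cyp2s1 at 0.207 CPM per kb, known for tissues outside the liver or for induction by chemicals.

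Summed over all 42 members, the level was 23496 ± 1175 CPM in high-fat 129S1/SvImJ livers and 20594 ± 1318 CPM in chow 129S1/SvImJ livers (SD, n = 6 and 5). In C57BL/6J the sum was 17500.3 ± 2603 CPM in high-fat C57BL/6J livers and 17795 ± 1361 CPM in chow C57BL/6J livers (SD, n = 7 and 6). The sums of the 129S1/SvImJ livers did not overlap between diets, with 21903 to 24742 CPM on high-fat diet and 18516 to 21740.3 CPM on chow, whereas the C57BL/6J diet groups overlapped. Cyp2e1 alone made up 41.4% of the members' level in high-fat 129S1/SvImJ livers, 39.7% in chow 129S1/SvImJ livers, 34.7% in high-fat C57BL/6J livers and 34.4% in chow C57BL/6J livers. The Cyp3a sum was higher on high-fat diet in both strains, at 2407 ± 446 against 1269 ± 152 CPM in 129S1/SvImJ and 3126 ± 673 against 2156 ± 282 CPM in C57BL/6J. The Cyp2c sum was 4369 ± 512 CPM in high-fat 129S1/SvImJ livers and 4593 ± 542 CPM in chow 129S1/SvImJ livers, against 2657 ± 752 CPM in high-fat C57BL/6J livers and 3495 ± 316 CPM in chow C57BL/6J livers. These sums are descriptions without a test.

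**Figure D1:**
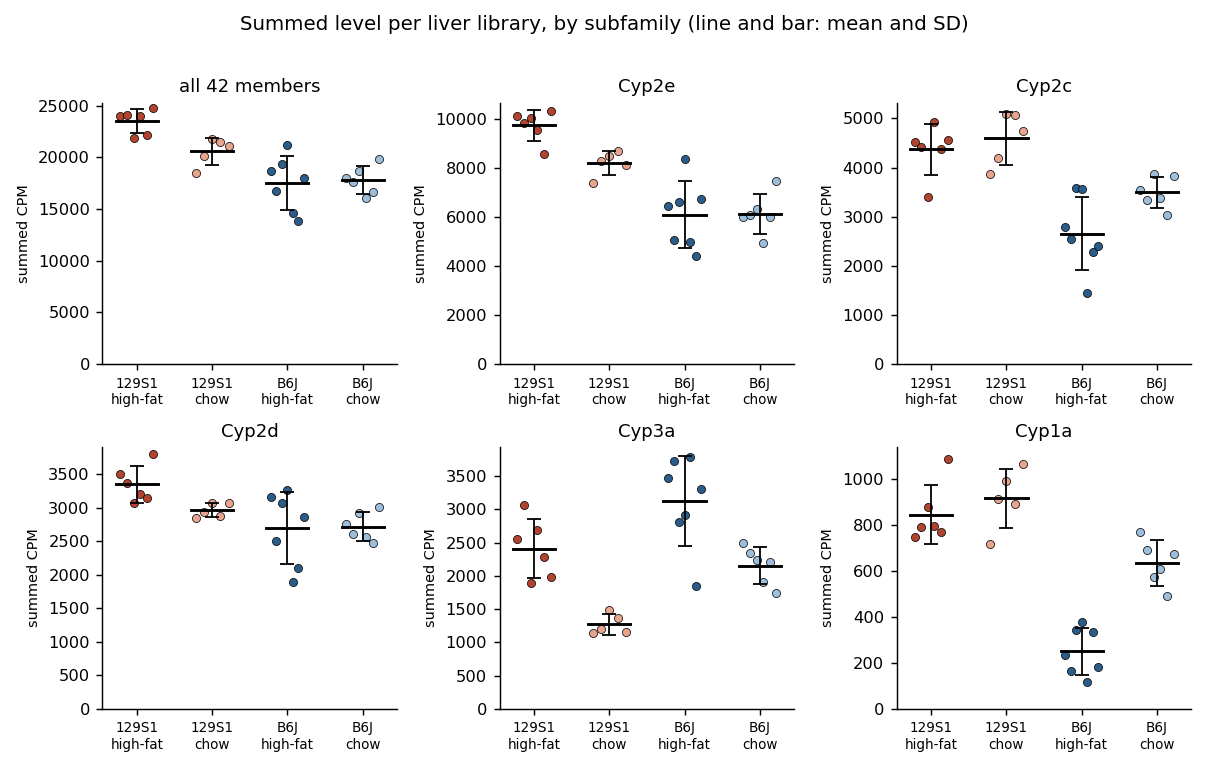
Summed level (CPM, linear axis from 0) of all 42 members and of 5 subfamilies in each liver library, in 4 groups by strain (129S1 for 129S1/SvImJ, B6J for C57BL/6J) and diet; points are mice, the line is the mean and the bar the SD. Cyp3a is on average highest in C57BL/6J on high-fat diet, and the Cyp1a sum is lowest in that group, at 249 ± 102 CPM.

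On high-fat diet, 11 of the 40 tested members changed in 129S1/SvImJ livers, 7 higher and 4 lower, where 10.4% of all 14533 genes tested were called, 5.41% higher and 5.01% lower. In C57BL/6J livers 14 of 40 changed, 5 higher and 9 lower, where 14.9% of all genes were called, 7.66% higher and 7.20% lower. Between strains 16 of 40 differed on chow, 8 higher and 8 lower in 129S1/SvImJ, against 25.0% of all genes, 12.6% higher and 12.5% lower. On high-fat diet 24 of 40 differed between strains, 16 higher and 8 lower, against 37.0% of all genes, 17.9% higher and 19.1% lower. The median log2 fold change of the tested members was 0.09 for diet in 129S1/SvImJ, −0.12 for diet in C57BL/6J, −0.00 for strain on chow and 0.16 for strain on high-fat diet, and that of all genes lay between −0.00 and 0.01. Without regard to sign the members' median was 0.46, 0.32, 0.42 and 0.57 in the same order of comparisons, and that of all genes 0.16, 0.16, 0.19 and 0.22. Each group takes part in more than 1 comparison, so the 4 counts are not independent of each other. The 24 tested cytochromes of families 4 and above had 8, 8, 6 and 10 calls in the same order.

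**Figure D2:**
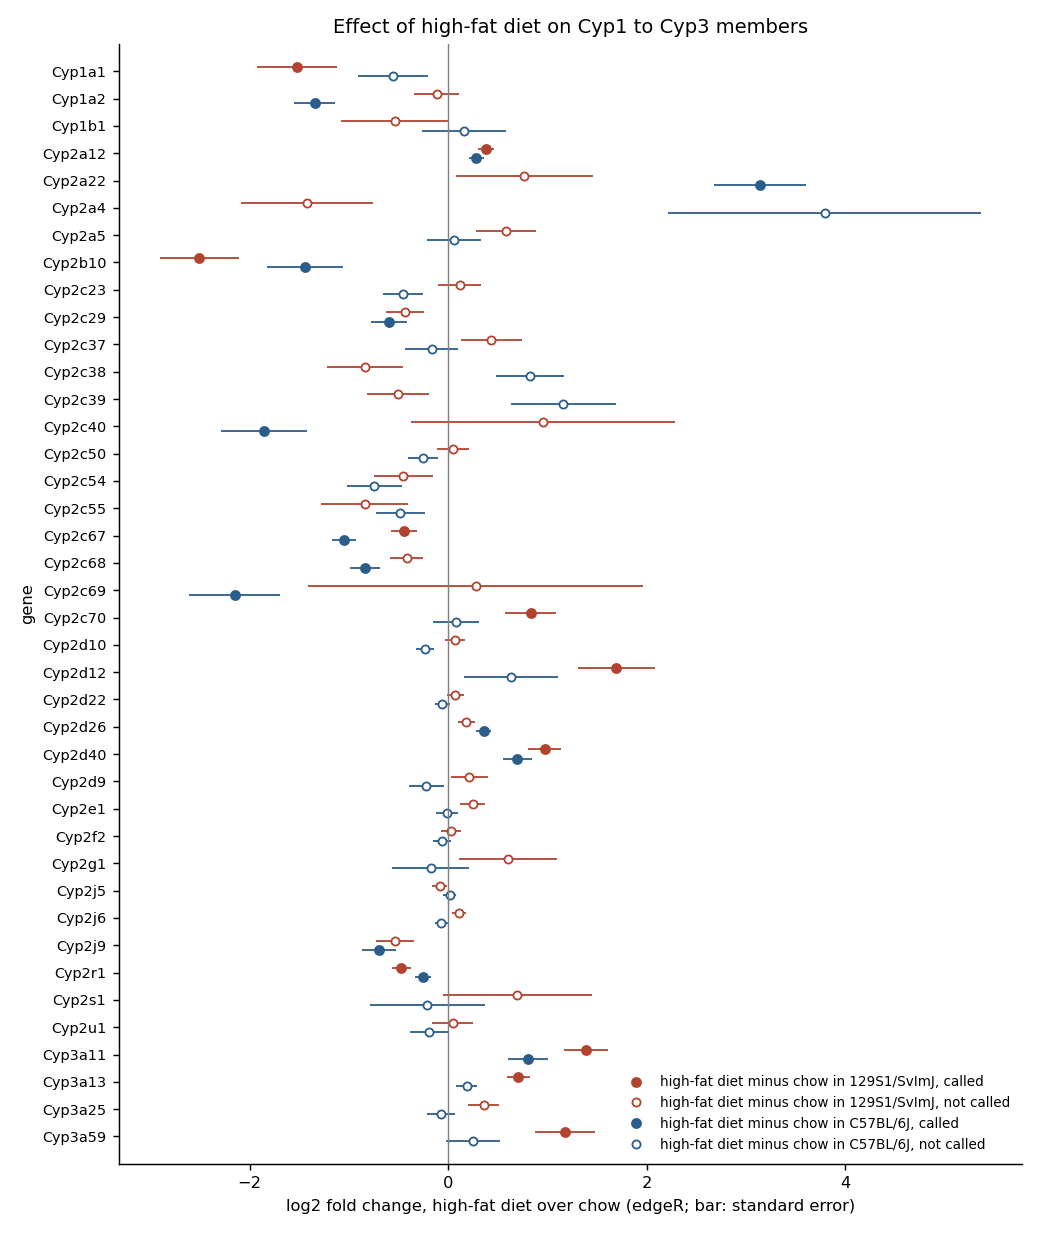
Log2 fold change of high-fat diet over chow for the 40 tested members (x axis; points edgeR estimates, bars standard errors), red for 129S1/SvImJ and blue for C57BL/6J, filled where called and open where not. Cyp3a11, Cyp2d40 and Cyp2a12 lie right of 0 and filled in both strains, and Cyp2b10, Cyp2c67 and Cyp2r1 left of 0 and filled in both.

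Cyp1a2, an AHR target on chromosome 9 (57676937 to 57683703 in mm10, minus strand) that oxidises caffeine and aromatic amines, fell on high-fat diet in C57BL/6J. It stood at 114 to 377 CPM (median 231) in high-fat C57BL/6J livers, against 490.1 to 768 CPM (median 639) in chow C57BL/6J livers. Every C57BL/6J liver on high-fat diet lay below every one on chow (log2 fold change -1.35 ± 0.21, adjusted p = 0.000164), and replicates 5 and 2 held the lowest values of the high-fat group, at 114 and 161 CPM. In 129S1/SvImJ, Cyp1a2 had 745 to 1087 CPM (median 791) in high-fat 129S1/SvImJ livers, against 717, 911, 988, 889 and 1062 CPM in chow 129S1/SvImJ livers. These diet groups overlapped and the gene was not called (edgeR adjusted p = 0.802). Between strains on high-fat diet, Cyp1a2 was higher in 129S1/SvImJ with no overlap (log2 fold change 1.76 ± 0.21 (SE), adjusted p = 6.3e-07), while on chow the groups overlapped (adjusted p = 0.0867). In a fit of the chow groups alone it was called higher in 129S1/SvImJ on chow (adjusted p = 0.00316). The same held without C57BL/6J high-fat replicate 5 (0.0292) and without both libraries with the highest level of the fat-cell gene Adipoq (0.0203). The diet effects of the strains differed by 1.23 ± 0.31 on the log2 scale, which did not pass edgeR's test (adjusted p = 0.072) but did in DESeq2 (adjusted p = 0.00598), and in edgeR without C57BL/6J high-fat replicate 4 (0.0292) or replicate 6 (0.0477).

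The other family 1 genes were scarce. Cyp1a1, the inducible AHR target next to Cyp1a2, had 0.0886 to 0.719 CPM (median 0.400) in high-fat 129S1/SvImJ livers, against 0.866, 1.05, 0.944, 2.36 and 1.18 CPM in chow 129S1/SvImJ livers. It fell in 129S1/SvImJ (log2 fold change -1.53 ± 0.40 (SE), adjusted p = 0.0131), with no overlap of the groups, and without chow replicate 4, its highest library, the adjusted p was 0.0692. In C57BL/6J Cyp1a1 averaged 0.651 ± 0.298 CPM on high-fat diet and 0.943 ± 0.187 CPM on chow (SD, n = 7 and 6; adjusted p = 0.299). Cyp1b1, which acts mainly outside the liver on oestrogens, had group means of 0.801 to 1.70 CPM and was called in no comparison of the main fit. Without C57BL/6J high-fat replicate 3 (adjusted p = 0.0447) or 4 (0.0457) it was called lower in 129S1/SvImJ on high-fat diet.

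The 4 Cyp3a members on chromosome 5 were led by Cyp3a11 (145854426 to 145879964 in mm10, minus strand), a PXR target and the main drug-oxidising Cyp3a of mouse liver. Cyp3a11 had 958 to 1934 CPM (median 1393) in high-fat 129S1/SvImJ livers, against 329, 479, 696, 637 and 511 CPM in chow 129S1/SvImJ livers, so that all 6 high-fat livers exceeded all 5 chow livers. It rose there (log2 fold change 1.39 ± 0.22 (SE), adjusted p = 0.000237). In C57BL/6J Cyp3a11 had 1088 to 2961 CPM (median 2440.0) in high-fat C57BL/6J livers, against 1071 to 1468 CPM (median 1306) in chow C57BL/6J livers. Replicate 6, at 1088 CPM, was the high-fat library within the chow range, and the gene rose in that strain too (log2 fold change 0.81 ± 0.20 (SE), adjusted p = 0.00817). Cyp3a11 was lower in 129S1/SvImJ than in C57BL/6J on high-fat diet (log2 fold change -0.72 ± 0.20 (SE), adjusted p = 0.00667) and on chow (log2 fold change -1.30 ± 0.22 (SE), adjusted p = 0.000102). The strain groups on chow did not overlap, and those on high-fat diet did. Both calls of a rise on high-fat diet held in every alternative run.

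Cyp3a13, another hepatic and intestinal member of the subfamily that lies apart from the others on chromosome 5, had 184 to 253 CPM (median 228) in high-fat 129S1/SvImJ livers, against 111, 131, 154, 134 and 155 CPM in chow 129S1/SvImJ livers. The diet groups of 129S1/SvImJ did not overlap, and the gene rose (log2 fold change 0.70 ± 0.12 (SE), adjusted p = 0.000237). In C57BL/6J Cyp3a13 had 124 to 191 CPM (median 168) in high-fat C57BL/6J livers, against 126 to 187 CPM (median 135) in chow C57BL/6J livers, with overlap and no call (adjusted p = 0.246). The difference between the diet effects was not called either (edgeR adjusted p = 0.122). On high-fat diet Cyp3a13 was higher in 129S1/SvImJ (log2 fold change 0.46 ± 0.10 (SE), adjusted p = 0.00118), in the opposite direction to Cyp3a11.

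Cyp3a59 and Cyp3a25 share 24.7% to 25.0% of their 50-base stretches of transcript, so that reads could have been assigned to either. Cyp3a59 had 36 to 60.7 CPM (median 51.3) in high-fat 129S1/SvImJ livers, against 21, 21.9, 26.8, 21.1 and 19.6 CPM in chow 129S1/SvImJ livers and rose there without overlap (log2 fold change 1.18 ± 0.31 (SE), adjusted p = 0.0163). In C57BL/6J Cyp3a59 had 17.6 to 43.6 CPM (median 33.7) in high-fat C57BL/6J livers, against 11.2 to 48.4 CPM (median 26.1) in chow C57BL/6J livers and was not called (adjusted p = 0.594). Cyp3a25, the more abundant of the pair, averaged 744 ± 81.4 CPM in high-fat 129S1/SvImJ livers and 579 ± 77.8 CPM in chow 129S1/SvImJ livers, and 649 ± 103 CPM in high-fat C57BL/6J livers and 681 ± 207 CPM in chow C57BL/6J livers, and was called in no comparison of the main fit. In a fit of the 129S1/SvImJ groups alone Cyp3a25 was called higher on high-fat diet (adjusted p = 0.0217). Taken as a sum the pair stood at 794 ± 88.3 CPM in high-fat 129S1/SvImJ livers and 601 ± 78.9 CPM in chow 129S1/SvImJ livers (SD, n = 6 and 5).

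**Figure D3:**
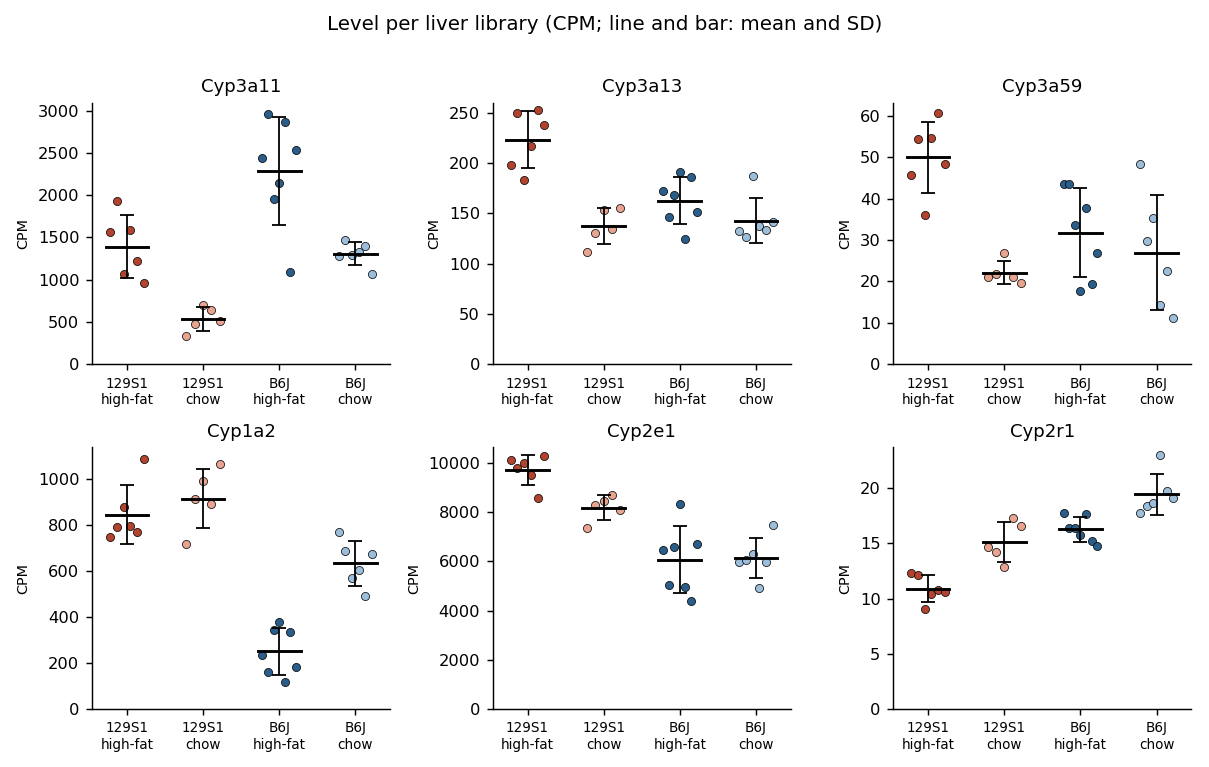
Level (CPM, linear axis from 0) of 6 members in every liver library, in 4 groups by strain (129S1 for 129S1/SvImJ, B6J for C57BL/6J) and diet; points are mice, the line is the mean and the bar the SD. Cyp3a11 is above chow on high-fat diet in both strains, Cyp1a2 is lowest in C57BL/6J on high-fat diet, and Cyp2e1 is highest in 129S1/SvImJ on high-fat diet.

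The promoters of Cyp3a11 and of several Cyp2c members share a stretch of letters that is shown here because these genes are among those that changed with diet. RefSeq promoters of GRCm38.p6, 250 bases before to 50 after the start, were matched to 36 of the 42 members by symbol. The sequence CAAAGTCCA, the form in which the binding element of the hepatocyte factor HNF4A is often written, was searched on both strands as exact letters. It stood in the promoters of 6 of the 36 members, namely Cyp2c40, Cyp2c67, Cyp2c68, Cyp2c69, Cyp2c70 and Cyp3a11, and in 0.475% of all 32851 promoters of that length. Other letters were searched in the same way. The AHR core GCGTG stood in 6 of the 36, Cyp1a2 not among them, and in 32.386% of all promoters. The sequence TATAAA stood in 22 of the 36 and in 13.616% of all promoters. A match of letters is a description and not a site that was measured. Each window is given 5′ to 3′ on the gene's own strand, here always the minus strand, with the element in capitals.
Cyp2c40, chr19:39812811-39812899: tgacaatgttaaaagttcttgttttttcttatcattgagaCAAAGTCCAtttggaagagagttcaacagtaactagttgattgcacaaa
Cyp2c69, chr19:39886796-39886884: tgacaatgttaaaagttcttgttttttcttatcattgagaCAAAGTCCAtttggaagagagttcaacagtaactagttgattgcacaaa
Cyp2c67, chr19:39649119-39649207: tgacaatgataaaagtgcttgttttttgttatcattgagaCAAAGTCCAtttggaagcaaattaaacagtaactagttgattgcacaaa
Cyp2c68, chr19:39741130-39741218: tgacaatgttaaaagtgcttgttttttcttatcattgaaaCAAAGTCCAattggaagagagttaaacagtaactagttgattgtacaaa
Cyp2c70, chr19:40187302-40187390: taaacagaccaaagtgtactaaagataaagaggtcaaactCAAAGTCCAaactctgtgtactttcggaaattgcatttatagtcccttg
Cyp3a11, chr5:145879915-145880003: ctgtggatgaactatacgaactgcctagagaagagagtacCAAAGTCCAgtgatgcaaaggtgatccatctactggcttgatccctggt
The first 4 windows come from genes that are near copies of each other, so that the 6 matches are not 6 separate occurrences. The whole promoters of Cyp2c40 and Cyp2c69 were the same at 98.89% of 270 aligned bases, and those of Cyp2c67 and Cyp2c68 at 91.63% of 251.

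Each of these 4 neighbours, Cyp2c67, Cyp2c68, Cyp2c40 and Cyp2c69, was called lower in C57BL/6J livers when the high-fat diet was fed. The 4 calls are not separate observations, since these near copies share stretches of transcript and reads could have been assigned to any of them. The call of Cyp2c69 also follows in part from its selection, as described below. Cyp2c67 had 87.2 to 149.8 CPM (median 119.5) in high-fat C57BL/6J livers, against 202 to 333 CPM (median 236) in chow C57BL/6J livers, without overlap (log2 fold change -1.05 ± 0.12 (SE), adjusted p = 3.27e-06). In 129S1/SvImJ Cyp2c67 had 310.0 to 402 CPM (median 372) in high-fat 129S1/SvImJ livers, against 484, 428, 551, 505 and 484 CPM in chow 129S1/SvImJ livers, again without overlap, and fell too (log2 fold change -0.45 ± 0.13 (SE), adjusted p = 0.0275). The fall in 129S1/SvImJ lost its call without any of 129S1/SvImJ high-fat replicates 2 and 4 and chow replicates 1, 3 and 4, with an adjusted p of up to 0.0717, and the difference between the strains' diet effects was not called (adjusted p = 0.12). Cyp2c67 was higher in 129S1/SvImJ on high-fat diet (log2 fold change 1.61 ± 0.12 (SE), adjusted p = 9.62e-11) and on chow (log2 fold change 1.01 ± 0.13 (SE), adjusted p = 1.66e-06), with no overlap on either diet.

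Cyp2c68 had 41.9 to 88.7 CPM (median 53.1) in high-fat C57BL/6J livers, against 89.2 to 144 CPM (median 92) in chow C57BL/6J livers. It fell in C57BL/6J without overlap (log2 fold change -0.84 ± 0.15 (SE), adjusted p = 0.000716). In 129S1/SvImJ Cyp2c68 had 59.3 to 90.0 CPM (median 69.3) in high-fat 129S1/SvImJ livers, against 77.6, 83.3, 119, 105 and 92.4 CPM in chow 129S1/SvImJ livers and was not called (adjusted p = 0.115). Cyp2c40 and Cyp2c69 were the scarce members of the 4 and nearly silent in 129S1/SvImJ. Cyp2c40, known from the mouse intestine for hydroxylating arachidonic acid, averaged 1.32 ± 1.2 CPM in high-fat C57BL/6J livers and 4.52 ± 3.00 CPM in chow C57BL/6J livers (log2 fold change -1.85 ± 0.43 (SE), adjusted p = 0.00503), and 0.194 and 0.0929 CPM in high-fat 129S1/SvImJ livers and chow 129S1/SvImJ livers. Cyp2c69 averaged 0.482 ± 0.533 CPM in high-fat C57BL/6J livers and 1.99 ± 0.736 CPM in chow C57BL/6J livers (log2 fold change -2.15 ± 0.46 (SE), adjusted p = 0.00197).

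In 129S1/SvImJ, Cyp2c69 had 4 counts over all 6 high-fat libraries and 2 over all 5 chow libraries. On chow its level in 129S1/SvImJ was 0.0245 of that in C57BL/6J, where 132 counts were read, with an exact 95% Poisson interval of 0.00294 to 0.0903 that covers counting error only. Only chow C57BL/6J livers averaged over 0.5 CPM for Cyp2c69, and they brought it over the members' threshold. Its differences from that group thus follow in part from its selection. Cyp2c40 was lower in 129S1/SvImJ on high-fat diet (log2 fold change -2.57 ± 0.69 (SE), adjusted p = 0.00391) and on chow (log2 fold change -5.38 ± 0.80 (SE), adjusted p = 9.36e-06). On chow Cyp2c40 had 0.247, 0.105, 0, 0.112 and 0 CPM in 129S1/SvImJ, so the size of that fold rests on few counts. Over the alternative runs it lay between -5.98 and -1.74. The 4 genes share 35.6% to 46.3% of their 50-base stretches with their closest copy, and 43.3% (Cyp2c68) to 72.1% (Cyp2c40) with any other gene. Summed over the 4, the level was 431 ± 42.1 CPM in high-fat 129S1/SvImJ livers and 586 ± 59 CPM in chow 129S1/SvImJ livers. In C57BL/6J the sum was 178 ± 39 CPM in high-fat C57BL/6J livers and 354 ± 67.6 CPM in chow C57BL/6J livers. The sum does not depend on how reads were split among these 4 copies, but reads that were lost or given to other genes would change it. It was lower on high-fat diet in both strains, which is a description without a test. Reads of both strains were counted against mm10, the C57BL/6J genome. The part that sequence differences of 129S1/SvImJ had in these levels was not tested.

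Along the cluster on chromosome 19 some genes were higher in 129S1/SvImJ and their neighbours lower. Of the 13 Cyp2c members, 12 lie between 39007019 and 40187333 in mm10, and 7 of the 13 differed between strains on chow, 3 higher and 4 lower in 129S1/SvImJ, and 11 of 13 on high-fat diet, 6 higher and 5 lower. Of all genes 25.0% were called between strains on chow and 37.0% on high-fat diet. Cyp2c39, a retinoic acid hydroxylase at 39510862 to 39568529 on the plus strand, had 21.7 to 93.4 CPM (median 70.0) in high-fat 129S1/SvImJ livers, against 0.356 to 4.92 CPM (median 3.15) in high-fat C57BL/6J livers. On chow Cyp2c39 had 67.5, 131, 109, 78.1 and 69.7 CPM in chow 129S1/SvImJ livers, against 0.745 to 1.92 CPM (median 1.32) in chow C57BL/6J livers. The strains were far apart with no overlap, on high-fat diet (log2 fold change 4.49 ± 0.36 (SE), adjusted p = 3.06e-09) and on chow (log2 fold change 6.15 ± 0.44 (SE), adjusted p = 5.47e-10). Neither strain's diet effect was called (adjusted p = 0.336 in 129S1/SvImJ and 0.146 in C57BL/6J).

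Its neighbour Cyp2c38, an arachidonic acid epoxygenase, went the other way on high-fat diet, with 5.57 to 28.7 CPM (median 21.3) in high-fat 129S1/SvImJ livers, against 18.4 to 87.6 CPM (median 43.2) in high-fat C57BL/6J livers. It was lower in 129S1/SvImJ on that diet, although the groups overlapped (log2 fold change -1.40 ± 0.35 (SE), adjusted p = 0.00363). On chow Cyp2c38 had 28.1, 49.1, 37.6, 32 and 24.8 CPM in chow 129S1/SvImJ livers, against 19 to 46.7 CPM (median 26.6) in chow C57BL/6J livers, and was not called (adjusted p = 0.662). Cyp2c38 shares 6.88% of its 50-base stretches with Cyp2c39.

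Cyp2c37, a CAR target that oxidises arachidonic acid, had 46.8 to 125 CPM (median 87.4) in high-fat 129S1/SvImJ livers, against 86 to 349 CPM (median 179) in high-fat C57BL/6J livers. On chow Cyp2c37 had 48.6, 58.9, 76, 72.1 and 66.2 CPM in chow 129S1/SvImJ livers, against 145 to 296 CPM (median 197) in chow C57BL/6J livers, with no overlap. It was lower in 129S1/SvImJ on high-fat diet (log2 fold change -1.14 ± 0.28 (SE), adjusted p = 0.00278) and on chow (log2 fold change -1.74 ± 0.31 (SE), adjusted p = 0.000244). Its near copy Cyp2c50, an epoxygenase, averaged 481 ± 59 CPM in high-fat 129S1/SvImJ livers, 465 ± 60.3 CPM in chow 129S1/SvImJ livers, 528 ± 151 CPM in high-fat C57BL/6J livers and 629 ± 78.1 CPM in chow C57BL/6J livers, and was not called in any comparison of the main fit. On chow its adjusted p was 0.0531. Some alternatives called it lower in 129S1/SvImJ on chow, among them DESeq2 (adjusted p = 0.0316) and a fit of the chow groups alone (0.00477). Cyp2c54 was higher in 129S1/SvImJ on high-fat diet (log2 fold change 0.72 ± 0.28 (SE), adjusted p = 0.0465), a call that was lost in 19 of 24 fits that left out 1 library (adjusted p up to 0.0878) and kept only without 129S1/SvImJ high-fat replicate 3, C57BL/6J high-fat replicates 3, 4 or 5 or C57BL/6J chow replicate 4. The 3 together stood at 787 ± 124 CPM in high-fat 129S1/SvImJ livers and 853 ± 303 CPM in high-fat C57BL/6J livers, and at 829.6 ± 104 CPM in chow 129S1/SvImJ livers and 1068 ± 138 CPM in chow C57BL/6J livers.

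Cyp2c29, the most abundant Cyp2c member per length and an arachidonic acid epoxygenase induced through CAR and PXR, had 416 to 1028 CPM (median 864) in high-fat C57BL/6J livers, against 1020.5 to 1389 CPM (median 1113) in chow C57BL/6J livers. It fell on high-fat diet in C57BL/6J with overlap (log2 fold change -0.59 ± 0.18 (SE), adjusted p = 0.028), a call lost without C57BL/6J high-fat replicates 5 or 7 or chow replicates 3 or 4 (adjusted p up to 0.0631). In 129S1/SvImJ Cyp2c29 had 935 to 1885 CPM (median 1553) in high-fat 129S1/SvImJ livers, against 1592, 1815, 2321, 2327 and 2024 CPM in chow 129S1/SvImJ livers and was not called (adjusted p = 0.169). Cyp2c29 was higher in 129S1/SvImJ on high-fat diet (log2 fold change 0.95 ± 0.18 (SE), adjusted p = 0.00022) and on chow (log2 fold change 0.79 ± 0.20 (SE), adjusted p = 0.00409).

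Cyp2c70, the enzyme that makes the muricholic bile acids of the mouse, had 1059 to 1485 CPM (median 1079.8) in high-fat 129S1/SvImJ livers, against 571, 481, 632, 742 and 828 CPM in chow 129S1/SvImJ livers. It rose in 129S1/SvImJ without overlap (log2 fold change 0.83 ± 0.26 (SE), adjusted p = 0.0401), but the call was lost without any 1 of 9 libraries of that strain, high-fat replicates 1, 2, 4, 5 and 6 and chow replicates 1 to 4 (adjusted p up to 0.112). In C57BL/6J Cyp2c70 had 174 to 766 CPM (median 562) in high-fat C57BL/6J livers, against 351 to 620.4 CPM (median 511) in chow C57BL/6J livers, with overlap (adjusted p = 0.867). On high-fat diet Cyp2c70 was higher in 129S1/SvImJ without overlap (log2 fold change 1.18 ± 0.23 (SE), adjusted p = 0.000386). Of the remaining Cyp2c members, Cyp2c55, an intestinal and inducible form, was lower in 129S1/SvImJ on high-fat diet (log2 fold change -2.79 ± 0.33 (SE), adjusted p = 1.89e-07) and on chow (log2 fold change -2.43 ± 0.34 (SE), adjusted p = 3.43e-06), at group means of 0.444 to 4.61 CPM. Cyp2c23, an arachidonic acid epoxygenase, was higher in 129S1/SvImJ on high-fat diet (log2 fold change 0.56 ± 0.20 (SE), adjusted p = 0.0332), a call lost without 129S1/SvImJ high-fat replicates 4, 5 or 6 or C57BL/6J high-fat replicates 1, 2 or 7 (adjusted p up to 0.0683).

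**Figure D4:**
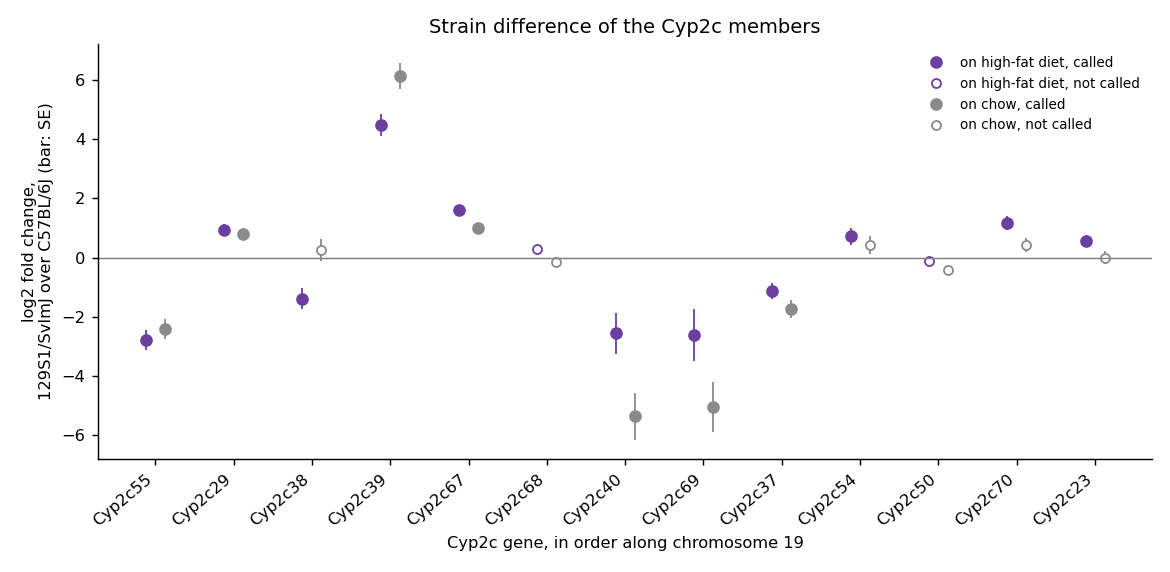
Log2 fold change of 129S1/SvImJ over C57BL/6J for the 13 Cyp2c members, evenly spaced in their order along chromosome 19, on high-fat diet (purple) and on chow (grey); bars are standard errors and filled points are called. Cyp2c39 lies far above 0 on both diets and Cyp2c55, Cyp2c40, Cyp2c69 and Cyp2c37 below 0 on both. The Cyp2c69 point on chow rests on 2 counts in 129S1/SvImJ, and the Cyp2c40 point on at most 0.247 CPM per library there.

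The Cyp2a members lie on chromosome 7. Cyp2a4, a steroid hydroxylase that is more abundant in female than in male mouse liver (26307169 to 26315088 in mm10, plus strand), had 7.32 to 54.8 CPM (median 14.4) in high-fat 129S1/SvImJ livers, against 0 to 14.4 CPM (median 0.102) in high-fat C57BL/6J livers. On chow Cyp2a4 had 26.3, 55.4, 44.9, 51.1 and 91.6 CPM in chow 129S1/SvImJ livers, against 0 to 0.423 CPM (median 0.149) in chow C57BL/6J livers, where all 6 libraries together held 12 counts. Cyp2a4 was thus higher in 129S1/SvImJ on chow, without overlap (log2 fold change 8.15 ± 1.18 (SE), adjusted p = 2.06e-05), and on high-fat diet (log2 fold change 2.92 ± 0.75 (SE), adjusted p = 0.00411). On high-fat diet the overlap came from C57BL/6J replicate 5, at 14.4 CPM, and without this library the log2 fold change was 5.27. Neither diet effect was called (adjusted p = 0.192 in 129S1/SvImJ and 0.104 in C57BL/6J).

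Cyp2a5, the coumarin hydroxylase of mouse liver, shares 31.0% of its 50-base stretches with Cyp2a4. It had 96.7 to 263 CPM (median 176) in high-fat 129S1/SvImJ livers, against 209 to 357 CPM (median 252) in high-fat C57BL/6J livers, without a call (adjusted p = 0.176). On chow Cyp2a5 had 38.8, 132, 109.5, 154 and 175 CPM in chow 129S1/SvImJ livers, against 140.0 to 321 CPM (median 259.9) in chow C57BL/6J livers, and was lower in 129S1/SvImJ with overlapping groups (log2 fold change -1.01 ± 0.31 (SE), adjusted p = 0.0177). In a fit of the chow groups alone that adjusted p was 0.0757. The promoters of the pair are shown because the genes differ in opposite directions between the strains on chow although their promoters are almost the same letters. The last 100 bases before each start, on the plus strand, carry in capitals the bases that differ between the aligned promoters. Both starts are RefSeq's, which lie downstream of the first base of each gene in GENCODE M21.
Cyp2a4, chr7:26307092-26307191: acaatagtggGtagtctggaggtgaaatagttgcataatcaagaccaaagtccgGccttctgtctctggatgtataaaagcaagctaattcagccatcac
Cyp2a5, chr7:26835239-26835338: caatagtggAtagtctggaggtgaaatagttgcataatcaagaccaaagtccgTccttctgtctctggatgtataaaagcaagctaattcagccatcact
Over the whole windows 294 of 299 aligned bases were the same in this reference. The sequence of 129S1/SvImJ was not used here. The summed level of Cyp2a4 and Cyp2a5 was 203 ± 53.9 CPM in high-fat 129S1/SvImJ livers and 259 ± 47.9 CPM in high-fat C57BL/6J livers, and 176 ± 74.2 CPM in chow 129S1/SvImJ livers and 246 ± 75.9 CPM in chow C57BL/6J livers.

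Cyp2a22 had the largest fold change on diet among the called members of C57BL/6J. It had 2.32 to 18.6 CPM (median 6.6) in high-fat C57BL/6J livers, against 0.423 to 1.62 CPM (median 0.987) in chow C57BL/6J livers, so that every high-fat liver lay above every chow liver (log2 fold change 3.15 ± 0.46 (SE), adjusted p = 8.4e-05). The high-fat values spread widely, with replicates 5 and 2 highest at 18.6 and 13.6 CPM. In 129S1/SvImJ Cyp2a22 had 0.467 to 1.47 CPM (median 1.05) in high-fat 129S1/SvImJ livers, against 0.247, 1.15, 0.405, 0.674 and 0.394 CPM in chow 129S1/SvImJ livers and was not called (adjusted p = 0.53). On high-fat diet Cyp2a22 was lower in 129S1/SvImJ without overlap (log2 fold change -3.01 ± 0.46 (SE), adjusted p = 1.51e-05). Cyp2a12, which hydroxylates testosterone and bile acids and shares 27.5% of its 50-base stretches with Cyp2a22, averaged 506 ± 28.8 CPM in high-fat 129S1/SvImJ livers and 388 ± 29.6 CPM in chow 129S1/SvImJ livers. It rose on high-fat diet in 129S1/SvImJ (log2 fold change 0.38 ± 0.08 (SE), adjusted p = 0.00229) and in C57BL/6J (log2 fold change 0.28 ± 0.07 (SE), adjusted p = 0.00876), where it averaged 442 ± 43.3 CPM in high-fat C57BL/6J livers and 363 ± 37.7 CPM in chow C57BL/6J livers. It was also higher in 129S1/SvImJ on high-fat diet (log2 fold change 0.20 ± 0.07 (SE), adjusted p = 0.0339), a call lost without 129S1/SvImJ high-fat replicates 2, 4, 5 or 6 or C57BL/6J high-fat replicates 4, 5 or 6 (adjusted p up to 0.0794).

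**Figure D5:**
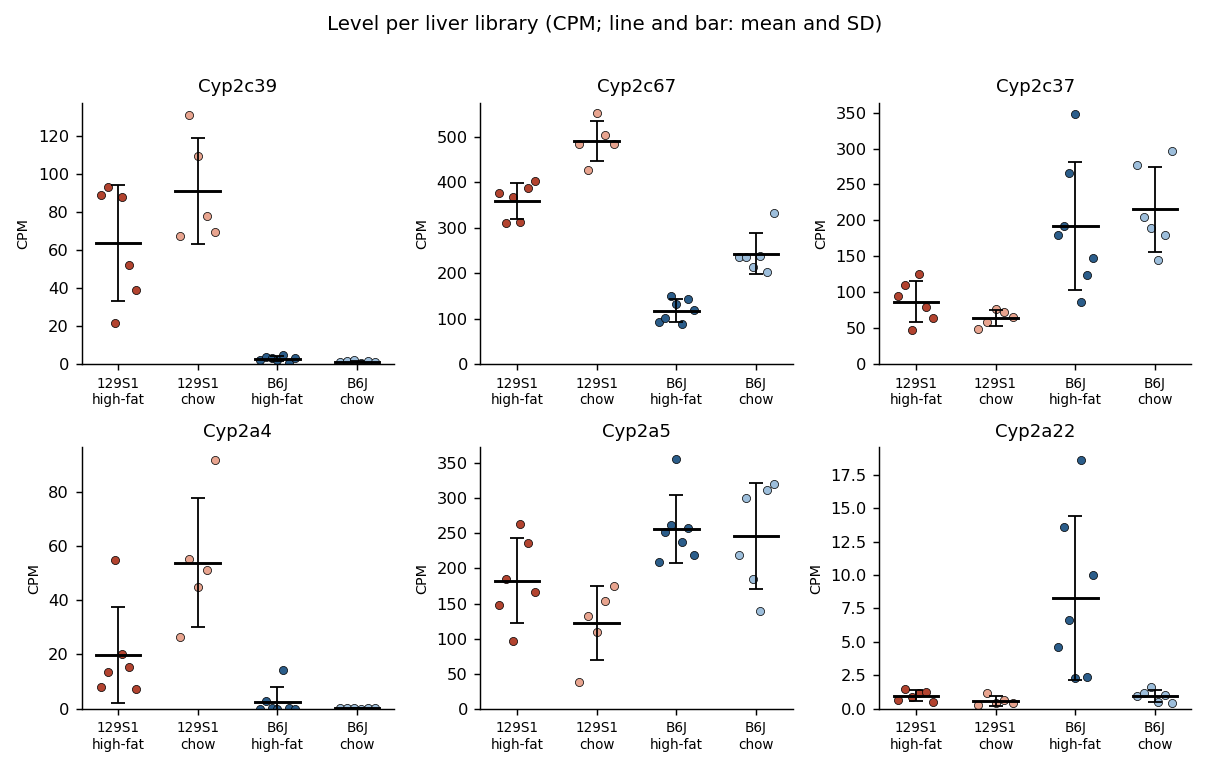
Level (CPM, linear axis from 0) of 6 Cyp2a and Cyp2c members in every liver library, in 4 groups by strain (129S1 for 129S1/SvImJ, B6J for C57BL/6J) and diet; points are mice, the line is the mean and the bar the SD. Cyp2c39 and Cyp2a4 are near 0 in C57BL/6J, apart from 1 high-fat liver for Cyp2a4, and Cyp2a22 is raised in C57BL/6J on high-fat diet.

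Both Cyp2b members were scarce. Cyp2b10, the classical CAR target of mouse liver, had 0.0886 to 1.26 CPM (median 0.674) in high-fat 129S1/SvImJ livers, against 3.46, 4.08, 4.18, 3.03 and 4.07 CPM in chow 129S1/SvImJ livers, without overlap. It fell on high-fat diet in 129S1/SvImJ (log2 fold change -2.51 ± 0.40 (SE), adjusted p = 0.000127). In C57BL/6J Cyp2b10 had 0.119 to 1.22 CPM (median 0.536) in high-fat C57BL/6J livers, against 1.25 to 3.14 CPM (median 1.46) in chow C57BL/6J livers and fell as well, again without overlap (log2 fold change -1.44 ± 0.38 (SE), adjusted p = 0.0105). On chow Cyp2b10 was higher in 129S1/SvImJ (log2 fold change 1.10 ± 0.35 (SE), adjusted p = 0.0193), and on high-fat diet the strains were at 0.683 ± 0.459 and 0.622 ± 0.413 CPM (SD, n = 6 and 7; adjusted p = 0.959).

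Cyp2b9, a form known as predominant in female mouse liver, had no count in any of the 11 libraries of 129S1/SvImJ. In the 7 C57BL/6J livers on high-fat diet it had 0.372, 19.7, 0.305, 0, 43.7, 0 and 1.13 CPM, and on chow at most 0.193 CPM in 6 livers. Replicates 2 and 5 thus held nearly all of its 750 counts on high-fat diet. Cyp2b9 reached the members' threshold of 0.5 CPM only through these replicates. A large difference between their group and the others therefore follows from its selection. Pooled over libraries its level in high-fat 129S1/SvImJ livers was at least 209.7-fold lower than in high-fat C57BL/6J livers, taking 3 counts in all 6 libraries together as the limit that a count of 0 allows, which covers counting error only and rests on those replicates. The same replicates held the highest Cyp2a22, Cyp2a4 and Cyp2c38 levels of their group and the lowest Cyp1a2. Replicate 5 was also the library with the highest level of the fat-cell gene Adipoq, at 1.23 CPM, and it had the leptin gene Lep at 3.28 CPM, while replicate 2 had 0 counts of both. The part of fat tissue in these values was not tested.

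Among the 7 Cyp2d members, a cluster on chromosome 15, Cyp2d40 rose on high-fat diet in both strains. It had 53.4 to 94.4 CPM (median 67.4) in high-fat 129S1/SvImJ livers, against 36.5, 45.1, 34.1, 27.3 and 37.5 CPM in chow 129S1/SvImJ livers, without overlap (log2 fold change 0.97 ± 0.16 (SE), adjusted p = 0.000412). In C57BL/6J Cyp2d40 had 60.8 to 105 CPM (median 90.3) in high-fat C57BL/6J livers, against 38.2 to 62.2 CPM (median 53.6) in chow C57BL/6J livers, with overlap (log2 fold change 0.70 ± 0.15 (SE), adjusted p = 0.00238). On chow Cyp2d40 was lower in 129S1/SvImJ (log2 fold change -0.53 ± 0.16 (SE), adjusted p = 0.0185), though not without 129S1/SvImJ chow replicate 4 (adjusted p = 0.0612). Cyp2d26 had 752 to 974 CPM (median 874) in high-fat C57BL/6J livers, against 611 to 846 CPM (median 658) in chow C57BL/6J livers and rose in C57BL/6J with overlap (log2 fold change 0.36 ± 0.08 (SE), adjusted p = 0.00203). In 129S1/SvImJ Cyp2d26 had 725 to 832 CPM (median 792) in high-fat 129S1/SvImJ livers, against 728, 741, 745, 620.0 and 639 CPM in chow 129S1/SvImJ livers and was not called (adjusted p = 0.166).

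Cyp2d9, a testosterone hydroxylase that is male-predominant in mice, had 1396 to 1779 CPM (median 1451) in high-fat 129S1/SvImJ livers, against 449.5 to 1358 CPM (median 1173) in high-fat C57BL/6J livers. It was higher in 129S1/SvImJ without overlap (log2 fold change 0.59 ± 0.17 (SE), adjusted p = 0.00981). On chow Cyp2d9 had 1229.5, 1216, 1309.9, 1363 and 1418 CPM in chow 129S1/SvImJ livers, against 1008 to 1383 CPM (median 1144) in chow C57BL/6J livers, and was not called (adjusted p = 0.605). Its scarce relative Cyp2d12 averaged 4.25 ± 0.944 CPM in high-fat 129S1/SvImJ livers and 1.32 ± 0.699 CPM in chow 129S1/SvImJ livers and rose there (log2 fold change 1.70 ± 0.39 (SE), adjusted p = 0.00533). Cyp2d12 was also higher in 129S1/SvImJ than in C57BL/6J on high-fat diet (log2 fold change 2.45 ± 0.36 (SE), adjusted p = 5.43e-06) and on chow (log2 fold change 1.39 ± 0.49 (SE), adjusted p = 0.0355), and the call on chow was lost without 129S1/SvImJ replicates 1, 2, 3 or 5 or C57BL/6J replicates 1, 4, 5 or 6 (adjusted p up to 0.117). Cyp2d10 (0.57 log2) and Cyp2d22 (0.22 log2) were both higher in 129S1/SvImJ when fed the high-fat diet (edgeR adjusted p = 2.17e-05 and 0.0282). Cyp2d22, by sequence the mouse relative of the main human CYP2D enzyme, lost its call without high-fat replicates 1, 2 or 6 of 129S1/SvImJ or 2, 5 or 6 of C57BL/6J (adjusted p up to 0.0729). Cyp2d11, untested, averaged 0.301 to 0.921 CPM.

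Cyp2e1 had 8575 to 10287 CPM (median 9918) in high-fat 129S1/SvImJ livers, against 7372, 8289, 8467, 8695 and 8106 CPM in chow 129S1/SvImJ livers. The groups overlapped and diet gave no call in 129S1/SvImJ (adjusted p = 0.22). In C57BL/6J Cyp2e1 had 4387 to 8357 CPM (median 6448) in high-fat C57BL/6J livers, against 4931 to 7468 CPM (median 6028) in chow C57BL/6J livers, again without a call (adjusted p = 0.966). Between strains Cyp2e1 was higher in 129S1/SvImJ on high-fat diet, where all its livers exceeded all C57BL/6J livers (log2 fold change 0.68 ± 0.11 (SE), adjusted p = 3.58e-05), and on chow (log2 fold change 0.42 ± 0.12 (SE), adjusted p = 0.0134). Cyp2f2, the periportal member, which oxidises naphthalene, had 1046 to 1323 CPM (median 1166) in high-fat 129S1/SvImJ livers, against 1199, 1143, 1015, 1062 and 1325 CPM in chow 129S1/SvImJ livers. In C57BL/6J Cyp2f2 had 1007 to 1393 CPM (median 1089.6) in high-fat C57BL/6J livers, against 1020.2 to 1469 CPM (median 1179) in chow C57BL/6J livers. All 4 groups overlapped, and its adjusted p was 0.887 and 0.712 for diet in 129S1/SvImJ and C57BL/6J.

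Among the Cyp2j members of chromosome 4, Cyp2j5, an arachidonic acid epoxygenase of liver and kidney, had 579.6 to 674 CPM (median 661) in high-fat 129S1/SvImJ livers, against 552 to 651 CPM (median 589.5) in high-fat C57BL/6J livers (adjusted p = 0.157). On chow Cyp2j5 had 646, 640.2, 796, 719.8 and 636 CPM in chow 129S1/SvImJ livers, against 528 to 652 CPM (median 585) in chow C57BL/6J livers. The small difference on chow was called (log2 fold change 0.22 ± 0.07 (SE), adjusted p = 0.024) and was lost without 129S1/SvImJ chow replicates 3 or 4 or C57BL/6J chow replicates 1 or 5 (adjusted p up to 0.0969). Cyp2j9 had 7.21 to 16.2 CPM (median 8.67) in high-fat C57BL/6J livers, against 10.7 to 20.9 CPM (median 14.7) in chow C57BL/6J livers and fell on high-fat diet in C57BL/6J with overlap (log2 fold change -0.70 ± 0.17 (SE), adjusted p = 0.00812). In 129S1/SvImJ Cyp2j9 had 7.64 to 13.1 CPM (median 9.85) in high-fat 129S1/SvImJ livers, against 19.3, 12.9, 13.2, 16.3 and 12.2 CPM in chow 129S1/SvImJ livers (adjusted p = 0.0752). Cyp2j6 was higher in 129S1/SvImJ on high-fat diet (log2 fold change 0.27 ± 0.07 (SE), adjusted p = 0.00178).

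Cyp2r1, which hydroxylates vitamin D in the liver, was low in both strains but narrow in its spread, and was called in all 4 comparisons. It had 9.08 to 12.3 CPM (median 10.7) in high-fat 129S1/SvImJ livers, against 14.7, 14.2, 12.8, 17.3 and 16.5 CPM in chow 129S1/SvImJ livers, without overlap (log2 fold change -0.47 ± 0.09 (SE), adjusted p = 0.00166). In C57BL/6J Cyp2r1 had 14.8 to 17.8 CPM (median 16.4) in high-fat C57BL/6J livers, against 17.8 to 23 CPM (median 18.9) in chow C57BL/6J livers, where the groups touched (log2 fold change -0.26 ± 0.08 (SE), adjusted p = 0.0333). The fall in C57BL/6J was not called without high-fat replicates 2, 6 or 7 or chow replicates 4 or 5 (adjusted p up to 0.0988). Cyp2r1 was lower in 129S1/SvImJ on high-fat diet (log2 fold change -0.58 ± 0.09 (SE), adjusted p = 6.54e-06) and on chow (log2 fold change -0.36 ± 0.09 (SE), adjusted p = 0.0041), without overlap on either diet. Cyp2u1, an oxidase of long-chain fatty acids, averaged 132 ± 43.3 CPM in high-fat 129S1/SvImJ livers and 109.5 ± 28.7 CPM in high-fat C57BL/6J livers, and the olfactory Cyp2g1 and epithelial Cyp2s1 averaged 1.05 CPM or less in each group. None of the 3 was called in any comparison.

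The interaction asked whether the diet effect differed between the strains. No member passed edgeR's test of that difference, where 0.296% of all genes were called, 0.172% higher and 0.124% lower. At an unadjusted p under 0.05 there were 11 of 40 members, where 14.3% of all genes were. DESeq2 called 3 members (Cyp1a2, Cyp2a4 and Cyp2a22) and 2.02% of all genes, and limma on the variance-stabilized values called 0 members and 0.323% of all genes. The median difference of the 40 members was 0.28 on the log2 scale, with 29 of 40 above 0, and that of all genes was −0.01, with 7115 of 14533 above 0. For Cyp2a4 the difference was -5.22 ± 1.67 (adjusted p = 0.143 in edgeR and 0.0374 in DESeq2). For Cyp2a22 it was -2.38 ± 0.89 (adjusted p = 0.21 in edgeR and 0.0472 in DESeq2). A call in 1 strain and not in the other, as for Cyp2c70, Cyp3a13 and Cyp3a59, is therefore not shown to be a difference between the strains.

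Of 22 tested receptors and hepatic factors known to act on cytochrome genes, 2 rose and 2 fell on high-fat diet in 129S1/SvImJ, and 0 rose and 2 fell in C57BL/6J. The called share was 18.2% in 129S1/SvImJ and 9.09% in C57BL/6J, where 10.4% and 14.9% of all genes were called. The AHR gene Ahr averaged 56.7 ± 4.56 CPM in high-fat 129S1/SvImJ livers and 81.5 ± 13.5 CPM in chow 129S1/SvImJ livers and fell there (log2 fold change -0.53 ± 0.13, adjusted p = 0.0117). In C57BL/6J Ahr was at 60.5 ± 13.3 CPM in high-fat C57BL/6J livers and 76.2 ± 11.7 CPM in chow C57BL/6J livers, without a call (adjusted p = 0.0658). Cebpa, a hepatocyte transcription factor, fell in 129S1/SvImJ (log2 fold change -0.50 ± 0.09, adjusted p = 0.000624). The HNF4A gene Hnf4a was at 611 ± 149 CPM in high-fat C57BL/6J livers and 879.5 ± 144 CPM in chow C57BL/6J livers and fell (log2 fold change -0.53 ± 0.13, adjusted p = 0.00798), while in 129S1/SvImJ it was at 632 ± 101 and 746 ± 38.7 CPM on high-fat diet and chow (adjusted p = 0.321). Foxa3, a forkhead factor of hepatocytes, fell in C57BL/6J (log2 fold change -0.68 ± 0.20, adjusted p = 0.0268), a call lost without high-fat replicates 2 or 7 or chow replicates 2 or 6 (adjusted p up to 0.0624). The CAR gene Nr1i3 was higher in 129S1/SvImJ on high-fat diet, at 556 ± 55.2 against 344 ± 95.7 CPM (log2 fold change 0.69 ± 0.17, adjusted p = 0.00297), and on chow, at 532 ± 114 against 321 ± 84.8 CPM (0.73 ± 0.19, adjusted p = 0.00574). The PXR gene Nr1i2 was called in no comparison, with group means of 64.1 to 81.4 CPM. Among strain comparisons 2 of the 22 were called on chow, both higher in 129S1/SvImJ, and 5 on high-fat diet, 4 higher and 1 lower. These shares of 9.09% and 22.7% lay below those of all genes, 25.0% on chow and 37.0% on high-fat diet.

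Of 15 genes for electron supply and haem synthesis, 2 rose and 3 fell on high-fat diet in 129S1/SvImJ and 0 were called in C57BL/6J. The called share was 33.3% in 129S1/SvImJ and 0% in C57BL/6J, against 10.4% and 14.9% of all genes. Por, the reductase that feeds electrons to all members, averaged 773 ± 130.5 CPM in high-fat 129S1/SvImJ livers and 290.0 ± 147 CPM in chow 129S1/SvImJ livers and rose (log2 fold change 1.41 ± 0.28, adjusted p = 0.00234). In C57BL/6J it was at 536 ± 140.4 CPM in high-fat C57BL/6J livers and 337 ± 86.3 CPM in chow C57BL/6J livers (adjusted p = 0.0785), and the difference of the 2 diet effects was not called (adjusted p = 0.367). Alad, an enzyme of haem synthesis, was higher in 129S1/SvImJ on high-fat diet (1.01 ± 0.08 log2, adjusted p = 4.18e-11) and on chow (1.24 ± 0.08 log2, adjusted p = 5.78e-12). Between strains 7 of the 15 were called on chow, 5 higher and 2 lower, and 10 on high-fat diet, 7 higher and 3 lower. These were 46.7% and 66.7% of the list, against 25.0% of all genes on chow and 37.0% on high-fat diet. Of 21 tested targets of CAR, PXR and AHR other than cytochromes, 2 rose and 1 fell on high-fat diet in 129S1/SvImJ and 4 rose and 1 fell in C57BL/6J, among them the transporter Abcb1a (1.71 ± 0.38 log2, adjusted p = 0.0041) and the quinone reductase Nqo1 (0.86 ± 0.21 log2, adjusted p = 0.00635). Between strains 4 of these 21 were called on chow, 2 higher and 2 lower, and 9 on high-fat diet, 3 higher and 6 lower. The called share of the 21 was 14.3% for diet in 129S1/SvImJ and 23.8% in C57BL/6J. It was 19% for strain on chow and 42.9% on high-fat diet. Of all genes the shares were 10.4%, 14.9%, 25.0% and 37.0% in the same order.

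Several marker lists held calls in the same comparisons, and their part in the members' values was not tested. The all-gene shares to set beside them are 10.4% (diet, 129S1/SvImJ), 14.9% (diet, C57BL/6J), 25.0% (strain, chow) and 37.0% (strain, high-fat diet). Between strains, some lists lay near these shares, such as pericentral markers at 30% on chow and periportal markers at 40% on high-fat diet. Kupffer cell and macrophage markers lay above them, at 83.3% on chow and 58.3% on high-fat diet. The lists are short, and no difference from these shares was tested. Of 9 tested hepatocyte markers 5 fell and 0 rose on high-fat diet in C57BL/6J, Alb by 0.43 ± 0.10 and Serpina1a by 0.61 ± 0.12 on the log2 scale (adjusted p = 0.0037 and 0.00127), and 1 fell and 0 rose in 129S1/SvImJ. Of 10 pericentral markers outside the cytochromes 2 fell in 129S1/SvImJ and 1 fell in C57BL/6J on high-fat diet, and of 10 periportal ones 1 fell in each strain. Between strains, 1 of the 10 pericentral markers was higher and 2 were lower in 129S1/SvImJ on chow (median log2 difference −0.10), and 1 was higher and 5 were lower on high-fat diet (median −0.46). Of the 10 periportal markers, 1 was lower in 129S1/SvImJ on chow, and 2 were higher and 2 lower on high-fat diet. Of 12 tested acute-phase and inflammatory genes, 1 rose on high-fat diet in 129S1/SvImJ, and 1 rose and 2 fell in C57BL/6J. Of the same 12, 1 was higher and 3 were lower in 129S1/SvImJ on chow (median −0.89), and 1 was higher and 2 lower on high-fat diet (median 0.08). Of 12 tested Kupffer cell and macrophage markers, 10 were lower in 129S1/SvImJ on chow and 7 on high-fat diet, with summed levels of 117 to 283 CPM in high-fat 129S1/SvImJ livers, 79.9 to 194 in chow 129S1/SvImJ livers, 221 to 547 in high-fat C57BL/6J livers and 227 to 365 in chow C57BL/6J livers. Of 4 tested adipocyte markers all 4 rose on high-fat diet in C57BL/6J, at summed levels of 91.5 to 369 CPM in high-fat C57BL/6J livers and 31.5 to 41.5 in chow C57BL/6J livers, while the defining Adipoq stayed at 1.23 CPM or below in every library. Of 9 stellate cell markers 3 rose on high-fat diet in C57BL/6J and 1 in 129S1/SvImJ, and 0 of 6 tested cholangiocyte, 0 of 8 endothelial and 0 of 4 tested lymphocyte markers were called for diet in either strain. Between strains, hepatocyte markers were higher in 129S1/SvImJ in 4 of 9 cases on high-fat diet and 1 of 9 on chow, and all 4 tested adipocyte markers were lower on high-fat diet and 1 on chow. Endothelial markers went both ways, with 3 of 8 higher and 3 lower on high-fat diet and 2 higher and 4 lower on chow, and 3 of 4 tested lymphocyte markers were lower on each diet. Of 9 stellate cell markers, 1 was higher and 3 were lower in 129S1/SvImJ on high-fat diet (median −0.42), and 2 were lower on chow (median −0.38). Of 6 tested cholangiocyte markers, 3 were lower in 129S1/SvImJ on high-fat diet (median −1.24) and 1 on chow (median −0.85).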

How the data were processed

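The authors deposited raw counts per gene, 1 column per mouse, and a matrix of variance-stabilized values on a log2-like scale. Per the labels' protocols, total RNA was DNase-treated, depleted of ribosomal RNA and made into strand-keeping libraries. Reads were handled on mm10, per the submitters' processing notes, which list DESeq2 1.26.0, STAR 2.5.4b, Bowtie2 2.2.3 and Trimmomatic 0.36 but no role for any of them. No source used here gives the counting tool, its annotation or its strand setting, so reads of near copies and of overlapping genes may have been split or lost in ways that cannot be seen. Total counts were 6707013 to 13124881 per library. Of 53677 identifiers, 53582 matched GENCODE M21 and the other 95 held 0.00747% of counts. No libraries of a group were alike within sampling noise (61 pairs compared).

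Counts were scaled by TMM and fitted with edgeR 4.0.16 (R 4.3.3; robust quasi-likelihood test, 4 group means, all 24 libraries, prior count 0.125). Benjamini-Hochberg adjustment ran over the 14533 genes that passed edgeR's filter on low counts, with calls at an adjusted p under 0.05; all tests were two-sided. CPM values use the TMM-scaled totals, except the mean levels set against the 0.5 CPM threshold, which use unscaled totals, and values per kb divide by the length of the longest annotated transcript. Shared stretches are the share of a gene's 50-base stretches that also occur in the other gene, or in any other gene where so stated. Every adjusted p in the text is edgeR's unless DESeq2 is named. Standard errors were derived as the absolute log2 fold change fitted without prior count over the square root of the test's F statistic. The printed fold changes include the prior count, so the 2 come from slightly different estimates, most so for scarce members. Alternatives were DESeq2 1.42.0, limma 3.58.1 on the deposited log2-like values, other scalings and filters, a replicate block and leaving out each library. The fit was also run on counts simulated from its own fitted means and spread, with results not given here. Such counts hold no outlying livers and no shared reads, so that run cannot test their effect. Sequences came from RefSeq promoters of GRCm38.p6, aligned with Biopython 1.88. The labels' replicate numbers mark separate mice, and the mouse identifiers hold numbers whose meaning the labels do not give, which were not used in the fits.

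The members and gene lists were chosen with earlier results of these data known. The values given for each library, or as lowest, median and highest, are for 24 members: up to 4 called members per direction and comparison with the largest fold change and a mean of 5 CPM or more where higher, and 12 set members. Cyp1a1 is also given this way and was chosen after its values were seen. Further members were named so that each appears, and sequences were shown for genes picked after their values were seen. Genes that are no members were named among the called genes with the smallest p of each list, beside Nr1i2, Nr1i3, Ahr and Por.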

Additional observations from a re-analysis of the deposited data

Results flagged for a closer look

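Among 94 sets of values, each 1 member in 1 group of 5 to 7 livers, 10 held a liver far from the rest of its group. Separate sets of normally spread values would give about 1 in 20. These sets reuse the same livers, are on the linear CPM scale and include members that share sequence, so their number was not tested against that rate. For each of the 10, the gap to the nearest other liver exceeded Dixon's 95% limit as a share of the group's range. In high-fat 129S1/SvImJ livers, Cyp2j5 was at 579.6 CPM in replicate 3 (others 645 to 674), Cyp2c70 at 1485 CPM in replicate 6 (others 1059 to 1196) and Cyp2a4 at 54.8 CPM in replicate 3 (others 7.32 to 20.2). In high-fat C57BL/6J livers, Cyp2a5 was at 357 CPM in replicate 4 (others 209 to 262). Replicate 5 of that group stood apart for Cyp2j9 at 16.2 CPM (others 7.21 to 10.1) and for Cyp2a4 at 14.4 CPM (others 0 to 2.74). In chow C57BL/6J livers, Cyp2b10 was at 3.14 CPM in replicate 4 (others 1.25 to 1.82), Cyp3a13 at 187 CPM in replicate 3 (others 126 to 141), Cyp2c67 at 333 CPM in replicate 6 (others 202 to 238) and Cyp2c38 at 46.7 CPM in replicate 5 (others at most 28.8).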

How the results depend on the processing

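Of 65 calls of a member in a comparison, 51 held in every alternative run other than the 1.5-fold requirement, 14 were lost in at least 1, and 0 changed direction. Some members not called in the main fit were called in an alternative run. Cyp2e1 was called for diet in 129S1/SvImJ in a fit of those groups alone (adjusted p = 0.0218). Cyp2d10 was called for strain on chow in DESeq2 (adjusted p = 0.0393), against 0.0527 in the main fit. Leaving out 1 library at a time gave 8 to 13 called members for diet in 129S1/SvImJ, 12 to 16 for diet in C57BL/6J, 14 to 19 for strain on chow and 21 to 26 for strain on high-fat diet. For the difference of diet effects that range was 0 to 1, and DESeq2 called 3, against 0 in edgeR; the cause was not tested. Replicate numbers were taken not to pair the mice. Deviations of same-numbered mice correlated at −0.21 to 0.281. Over 0.1 were 1 of 5 pairs for diet in 129S1/SvImJ and 1 of 6 in C57BL/6J. For strain, 4 of 5 pairs on chow and 2 of 6 on high-fat diet were over 0.1. Differently numbered mice were not compared, so these values cannot show whether the numbers pair the mice. With a replicate block the counts were 11, 12, 15, 22 and 0 in the same order of comparisons. Requiring a 1.5-fold change as well gave 8, 11, 12, 17 and 0, and the other alternatives, the block included, gave 9 to 15, 12 to 17, 14 to 18, 20 to 26 and 0 to 3. A fit of only the groups compared could not be run for the difference of diet effects, which uses all 4. Over all genes, leaving out 1 library moved the calls for diet in 129S1/SvImJ between 937 and 1671. Limma on the variance-stabilized values gave smaller log2 differences for scarce members, such as −0.48 for Cyp1a1 with diet in 129S1/SvImJ and −0.50 for Cyp2c69 with strain on high-fat diet, since that scale compresses low counts. Adding the level of the small nuclear RNA 7SK to the fit and leaving out both libraries with the highest Adipoq were chosen after seeing the data. Depth limits what can be said of members under about 1 CPM, where a library holds about 10 counts.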
